A study of Mus musculus with 4 samples.

Results

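The genes described here encode 9 cytokine receptor chains of the interleukin-2 (IL-2) receptor and of related receptors, namely Il2ra, Il2rb, Il2rg, Il7r, Il4ra, Il21r, Il6ra, Il27ra and Il10ra. They were taken by name and are 9 of 13314 genes in the deposited table of unique molecular identifier (UMI) counts. Each was followed in single CD4 T cells of the mesenteric lymph nodes, across the authors' 10 numbered clusters, their 10 sub-clusters, cells with and without a Foxp3 UMI, and 4 libraries. The libraries came from colonized Foxp3CNS1-, germ-free Foxp3CNS1-, colonized Foxp3GFP and germ-free Foxp3GFP mice, with 1 library per group. All mice were male and started germ-free, and the colonized ones had received fecal microbiota from specific-pathogen-free (SPF) donors 9 days before. Foxp3CNS1- mice lack conserved noncoding sequence 1, an enhancer inside Foxp3, and Foxp3GFP mice carry the reporter allele without that deletion. The labels give no ages. Each library was made from lymph nodes of 3 mice that were pooled, and GFP-positive and GFP-negative CD4 T cells were mixed in equal parts after sorting. The mix therefore sets the share of Foxp3-expressing cells in a library. Mice, library preparation and group cannot be told apart.

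Cytokine receptors of this kind have no enzyme of their own. They bind Janus kinases (JAKs), which phosphorylate STAT factors when a cytokine joins the chains. Il2ra (CD25) gives high affinity for IL-2, Il2rb signals for IL-2 and IL-15, and Il2rg, the common gamma chain, is shared by the receptors for IL-2, IL-4, IL-7, IL-9, IL-15 and IL-21. Il7r, Il4ra and Il21r are the private partners of that chain for IL-7, IL-4 and IL-21. Il6ra and Il27ra bind IL-6 and IL-27 and signal with Il6st (gp130), and Il10ra binds IL-10 and signals with Il10rb. Regulatory T (Treg) cells are known for high CD25 and low IL-7 receptor on their surface, and they depend on IL-2 that other T cells make.

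The 16948 analysed cells were 5406 colonized Foxp3CNS1-, 3533 germ-free Foxp3CNS1-, 4030 colonized Foxp3GFP and 3979 germ-free Foxp3GFP cells, with 9360112 to 17929193 UMIs per library and medians of 2286 to 2832 UMIs per cell. The T cell genes Cd3d and Cd4 had a UMI in 89.2% to 94.4% and in 27.9% to 36.2% of the cells of a library. Foxp3, the factor that defines Treg cells, had a UMI in 19.9%, 16%, 20.9% and 16% of the cells in the order above. The counts come from the 3′ end of transcripts and do not read the deleted enhancer, so they give no check of the genotype. Of the cell barcodes, 157 occurred in 2 libraries and 0 in 3 or more. Doublets were neither called nor removed here. Clusters 3, 6 and 0 had the highest sums of 12 Treg markers, 5525, 2553 and 2501 CPM (a gene's summed UMIs relative to all UMIs in that set of cells), against 340 to 2123 CPM in the others, and are called Treg-like. Of their 10 leading genes 2, 1 and 3 were Treg markers, and cluster 6 led with Gsta4, Capn3 and Gsto1. Clusters 1 and 2 are called naive-like, cluster 9 follicular-helper-like and cluster 8 proliferating-like. Cluster 5, led by S100a4 and Ccr2, and clusters 4 and 7, led by Notch2, Slc39a1 and Actb, stay without a name. Summed markers of B and plasma cells reached 5203 CPM in cluster 3, against 308 to 1155 CPM in the other clusters.

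The members lie on 7 chromosomes of the mm10 build, and Il4ra and Il21r are neighbours. Il4ra (chromosome 7, 125552120 to 125579474, plus strand) ends 23955 bases before Il21r (125603429 to 125633570, plus strand) begins. Il2ra lies at 11642807 to 11693193 of chromosome 2 on the plus strand, and Il7r at 9505788 to 9530176 of chromosome 15 on the minus strand. Promoter windows of 300 bases, from 250 before to 50 after the start that RefSeq (GRCm38.p6) gives, were found for 6 of the 9 members. They were searched on both strands for a STAT motif (TTCNNNGAA, in 8.29% of 32817 mouse windows), a forkhead motif of the Foxo and Foxp family (TGTTTAC, in 3.65%) and an ETS motif (CCGGAAG, in 8.86%), 3 factor families known to act on such genes. A further search string, TTTCC, was in 61.3% of windows and is not marked. The windows of the Treg-linked Il2ra, of the naive- and survival-linked Il7r, and of the neighbours Il4ra and Il21r are shown 5′ to 3′ on the strand of the gene, with the matches in capitals.
Il2ra, chr2:11642542-11642841: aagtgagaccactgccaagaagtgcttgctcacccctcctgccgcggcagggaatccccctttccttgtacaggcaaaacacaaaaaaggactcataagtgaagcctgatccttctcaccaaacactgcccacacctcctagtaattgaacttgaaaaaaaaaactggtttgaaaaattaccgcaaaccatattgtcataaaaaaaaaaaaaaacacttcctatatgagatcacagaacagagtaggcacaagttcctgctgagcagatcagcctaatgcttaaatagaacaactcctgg
Il7r, chr15:9529827-9530126: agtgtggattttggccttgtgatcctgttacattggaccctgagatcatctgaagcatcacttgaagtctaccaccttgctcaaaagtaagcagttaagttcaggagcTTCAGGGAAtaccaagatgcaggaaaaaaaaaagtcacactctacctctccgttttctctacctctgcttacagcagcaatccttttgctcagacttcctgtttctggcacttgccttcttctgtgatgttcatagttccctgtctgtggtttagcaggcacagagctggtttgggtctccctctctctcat
Il4ra, chr7:125552021-125552320: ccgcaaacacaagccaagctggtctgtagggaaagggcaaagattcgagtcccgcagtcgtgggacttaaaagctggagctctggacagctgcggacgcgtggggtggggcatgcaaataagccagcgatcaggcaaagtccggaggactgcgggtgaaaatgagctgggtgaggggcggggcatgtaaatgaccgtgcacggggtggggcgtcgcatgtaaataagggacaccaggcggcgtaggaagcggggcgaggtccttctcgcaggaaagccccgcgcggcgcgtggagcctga
Il21r, chr7:125603179-125603478: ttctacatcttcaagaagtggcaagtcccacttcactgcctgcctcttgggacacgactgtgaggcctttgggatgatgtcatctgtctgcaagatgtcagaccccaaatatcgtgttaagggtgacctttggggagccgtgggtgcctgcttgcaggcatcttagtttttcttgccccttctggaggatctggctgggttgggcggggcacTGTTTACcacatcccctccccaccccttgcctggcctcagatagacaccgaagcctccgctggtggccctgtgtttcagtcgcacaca
The Il7r window held 1 STAT match, TTCAGGGAA, and the Il21r window held 1 forkhead match. The windows of Il2ra and Il4ra held none of the 3 motifs, nor did that of Il6ra, and the Il2rg window held 1 ETS match. The starts used for the windows of Il2ra, Il7r and Il4ra differ from those of the gene coordinates given above. By these coordinates the Il7r window, with its STAT match, lies wholly inside the gene, and the Il4ra window lies mostly inside. A match is a string of letters and not a measured binding site.

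The IL-2 receptor chains Il2ra and Il2rb had their highest levels in the Treg-like clusters and their lowest in naive-like or follicular-helper-like cells. Levels are given as CPM, the UMIs of a gene over all UMIs of the cells named, with mean ± SD over the 4 libraries, so the SD spans 4 different groups. They describe the clusters and are not tested, because the clusters were made from these cells, and Il2ra was itself among the leading genes of cluster 0. Il2ra averaged 205 ± 33.8 CPM in cluster 3, 168 ± 19.4 in cluster 6 and 161 ± 20.8 in cluster 0 (SD, n = 4 libraries each). In cluster 3 it had 190, 187, 256 and 187 CPM in colonized Foxp3CNS1-, germ-free Foxp3CNS1-, colonized Foxp3GFP and germ-free Foxp3GFP cells. A gap followed to clusters 4, 5, 7 and 8, with means of 70.0 to 90.2 CPM, and another to naive-like clusters 2 (32.5 CPM) and 1 (20.2 CPM). Within each of these 3 tiers the libraries of neighbouring clusters overlapped. In cluster 9 Il2ra had 0, 0, 34.8 and 27.4 CPM in the same library order, where 3 UMIs would have been 40.2 to 74.5 CPM, so its level there is at the limit of 17 to 25 cells per library.

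Il2rb had the same top tier, with 365 ± 43.0 CPM in cluster 3, 317 ± 72.5 in cluster 6 and 301 ± 64.8 in cluster 0. Every other cluster lay below it, with means of 75.0 to 200 CPM in the middle group and 40.4 CPM in cluster 1 alone at the bottom. In cluster 1 the libraries had 26.4, 38.0, 39.6 and 57.5 CPM. Il2rg, by contrast, was spread evenly: 8 of the 10 clusters had means of 262 to 297 CPM with overlapping libraries. Cluster 3 had the highest mean, 352 ± 20.4 CPM (331 to 377), above every library of these clusters but 1 of cluster 9 (375 CPM). The proliferating-like cluster 8 lay below them all with 186 ± 20.2 CPM (165 to 214). Cells of cluster 8 had a median of 6716 UMIs, against 2074.5 to 2855 in the other clusters. A low CPM there is a small share of more UMIs and need not mean fewer UMIs per cell. Il2rg, Il4ra, Il21r and Il27ra had 942, 196, 615 and 322 UMIs in its 640 cells. They had 1262, 376, 779 and 520 UMIs in the 1598 cells of cluster 6. For Il7r these counts were 75 and 398.

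**Figure D1:**
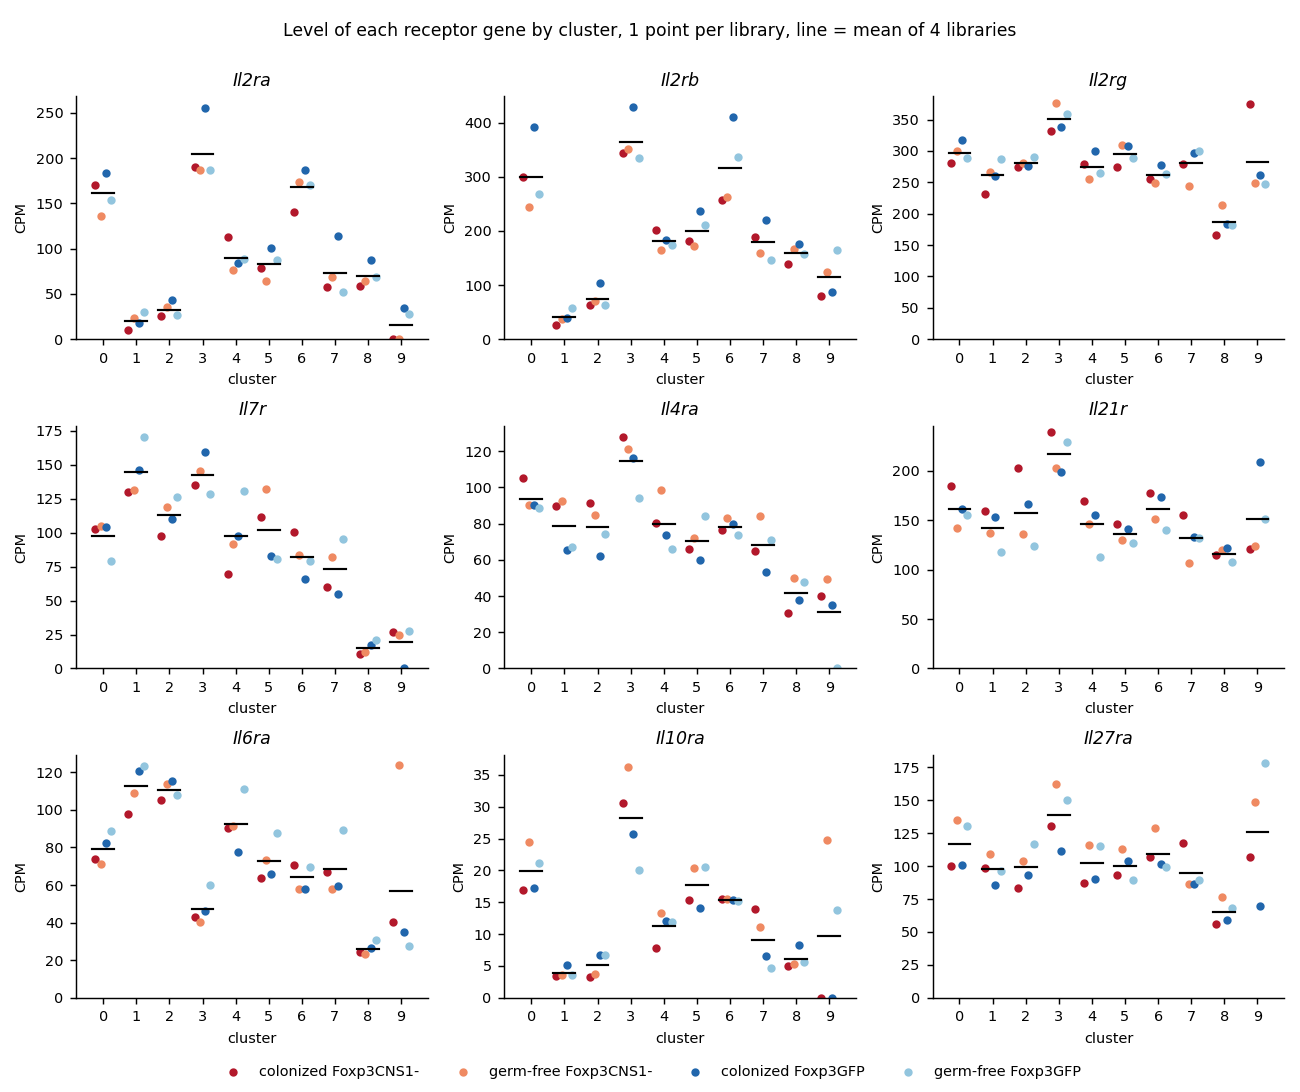
Level of each of the 9 receptor genes (vertical axis, CPM, linear from 0) by cluster (horizontal axis); each point is 1 library and each line the mean of the 4 libraries. Il2ra and Il2rb sat highest in clusters 0, 3 and 6, Il7r lowest in clusters 8 and 9, and Il6ra highest in clusters 1 and 2.

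Il7r, the receptor chain for the survival cytokine IL-7, did not split Treg-like from naive-like cells at the level of clusters. It was highest in naive-like cluster 1, with 144 ± 18.8 CPM (130 to 170), and in Treg-like cluster 3, with 142 ± 13.5 CPM (129 to 160), and these overlapped. The other Treg-like clusters, 0 and 6, averaged 97.8 and 82.3 CPM, below naive-like cluster 2 at 113 CPM but in one run of overlapping neighbours down to cluster 7 at 73.1 CPM. The clear drop was in cluster 8, and cluster 9 was also low but on few counts. In the proliferating-like cells of cluster 8 Il7r had 10.7, 12.5, 17.1 and 21.0 CPM, from 26, 7, 27 and 15 UMIs, and no library there came near the lowest value outside clusters 8 and 9, 54.7 CPM. Cluster 9 had 0 to 27.4 CPM, from 5 UMIs in 84 cells.

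Il4ra varied less. It averaged 115 ± 14.4 CPM in cluster 3, 93.7 in cluster 0 and 68.2 to 79.7 CPM in clusters 1, 2, 4, 5, 6 and 7, each overlapping the next. Below a gap came cluster 8 with 41.5 CPM (30.4 to 49.9) and cluster 9 with 31.2 CPM (0 to 49.6), the latter from 7 UMIs. Il21r, the receptor for a cytokine of follicular helper cells, was highest in cluster 3, where it had 239, 203, 199 and 229 CPM, a mean of 217 ± 19.6. The other clusters ran from 161 CPM in cluster 0 to 116 ± 6.13 CPM in cluster 8 without a gap, and follicular-helper-like cluster 9 lay among them at 151 CPM.

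Among the chains that signal with gp130, Il6ra ran against the IL-2 receptor. It was highest in naive-like clusters 1 (113 ± 11.7 CPM) and 2 (110 ± 4.94 CPM), and cluster 3 had 47.5 ± 8.82 CPM (40.3 to 60.2). The naive-like libraries (97.7 to 123 CPM) did not overlap those of cluster 3. Cluster 8 was lowest with 26.2 ± 3.37 CPM. Il27ra was flat, with means of 94.9 to 139 CPM in 9 clusters. Cluster 8 was lowest with 56.3 to 76.6 CPM, a range that reached the lowest library of cluster 9 (69.6 CPM) and no library of the other clusters. Il10ra, the member with the fewest UMIs (643 in all, in 3.57% of cells), averaged 28.2 ± 6.92 CPM in cluster 3, and 15.4 to 20.0 CPM in clusters 0, 5 and 6. It averaged 3.96 and 5.11 CPM in naive-like clusters 1 and 2.

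Cluster 3 was thus first for 7 of the 9 members, second for Il7r and next to last for Il6ra. It was also the cluster with the most UMIs of B and plasma cell markers, of which Ighm, Igkc and Jchain had 2040, 2575 and 477 CPM while Ms4a1 was at 0.7 CPM. Their part in the levels of cluster 3 was not tested. The sub-clusters, which the authors give for part of the cells, repeated the ranges and showed 1 further pattern. In sub-cluster s5, of 632 cells, Il2ra averaged 16.3 ± 5.45 CPM, Il7r 20.9 ± 5.04 CPM and Il4ra 23.3 ± 5.12 CPM, while Il6ra averaged 73.6 ± 9.93 and Il27ra 98 ± 16.2 CPM. For Il2ra the 4 libraries of s5 (10.4 to 21.9 CPM) lay below every library of the other sub-clusters, whose lowest value was 29.3 CPM. Low Il7r and Il4ra were not particular to s5. Il7r averaged 17.3 CPM in s6 and 19.1 CPM in s8, and Il4ra averaged 14.96 CPM in s8. The libraries behind these means overlapped those of s5. Sub-cluster s9 had 17 cells in 2 libraries and its levels are not described.

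Splitting the cells by Foxp3 showed which of these receptors go with the Treg factor inside a library. Cells with a Foxp3 UMI numbered 1074, 564, 844 and 636 in colonized Foxp3CNS1-, germ-free Foxp3CNS1-, colonized Foxp3GFP and germ-free Foxp3GFP mice, against 4332, 2969, 3186 and 3343 without. A cell without a Foxp3 UMI may still express Foxp3, since few of its transcripts are captured. Il2ra had 221, 216, 247 and 185 CPM in cells with a Foxp3 UMI, against 67.3, 62.2, 68.4 and 61.7 CPM in cells without. Il2rb had 383, 331, 454 and 304 CPM with, against 143, 137, 159 and 139 CPM without a Foxp3 UMI. For both genes every library with a Foxp3 UMI lay above every library without one. Il2rg had 284, 283, 303 and 275 CPM with, against 255, 281, 274 and 280 CPM without, and these ranges overlapped.

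**Figure D2:**
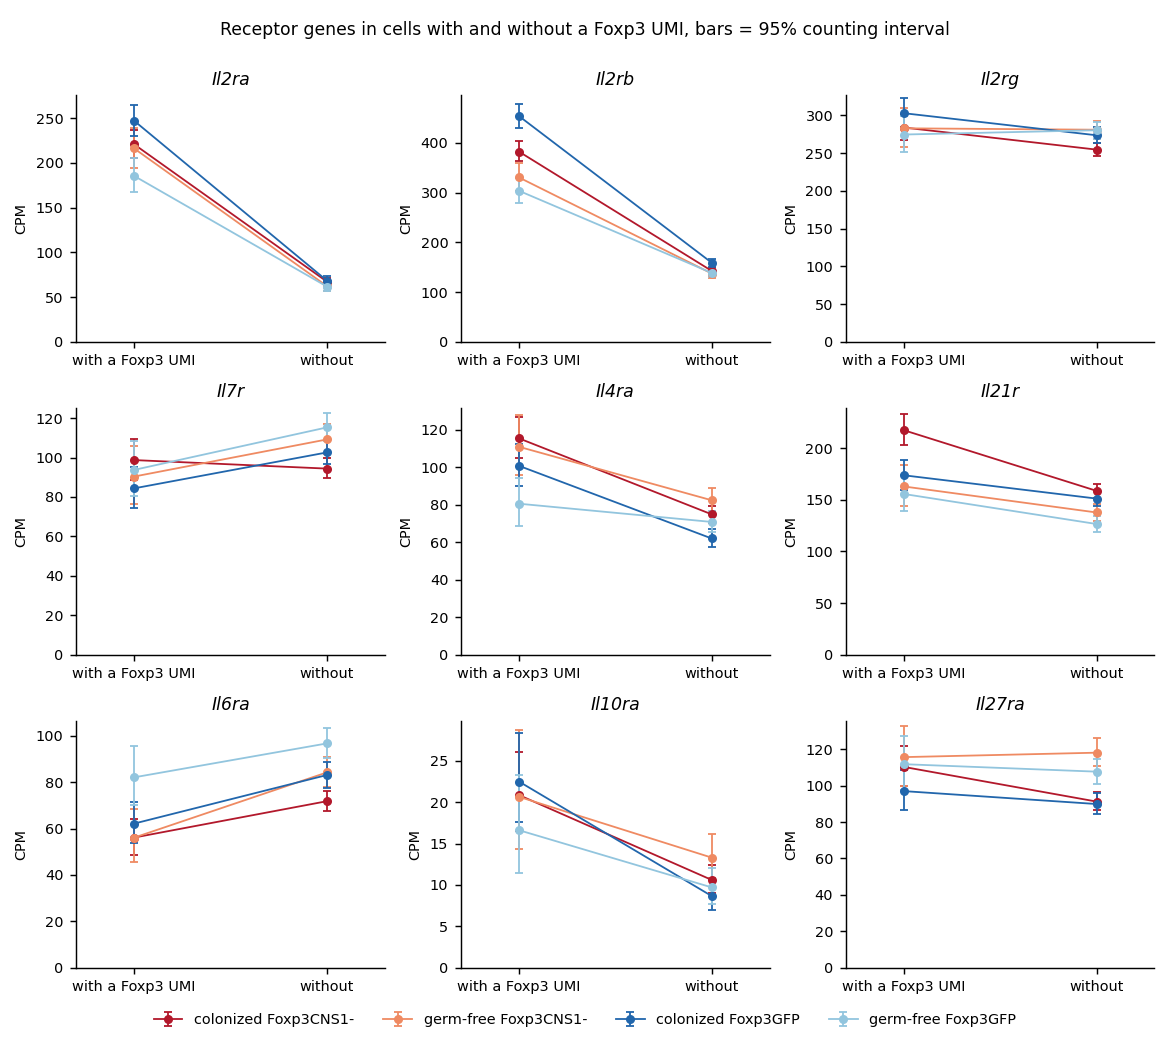
Level of each receptor gene (vertical axis, CPM, linear from 0) in cells with and without a Foxp3 UMI, for the 4 libraries; bars are exact 95% counting intervals of each value. The intervals of Il2ra and Il2rb stood apart by Foxp3 status in every library, while those of Il10ra overlapped in both germ-free libraries.

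Counts summed per library and Foxp3 status were compared with edgeR's quasi-likelihood test with the library as a block (4 libraries, Benjamini-Hochberg adjusted p over all genes tested, threshold 0.05). The 4 libraries come from 4 different groups, so the test asks for a difference they share. edgeR draws the spread behind a p-value partly from all genes, and in naive-like cells almost wholly. The p-values therefore do not measure each gene's own spread between the 4 libraries. Of 10783 genes tested, 9.89% were higher and 8.37% lower in cells with a Foxp3 UMI, and of the 9 members 5 were higher and 2 lower. Il2ra rose by 1.68 on the log2 scale (SE 0.054, adjusted p = 7.17e-20) and Il2rb by 1.29 (SE 0.052, adjusted p = 1.70e-17). Il10ra rose by 0.92 (SE 0.14, adjusted p = 9.56e-06), with 20.9, 20.7, 22.5 and 16.6 CPM in cells with a Foxp3 UMI, against 10.6, 13.3, 8.65 and 9.70 CPM without. The median log2 change was 0.25 over the members and -0.01 over all genes.

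Of the other chains, Il4ra rose by 0.46 (SE 0.070, adjusted p = 9.99e-06), with 116, 111, 101 and 80.6 CPM with, against 74.9, 82.4, 62.0 and 70.9 CPM without a Foxp3 UMI. The ranges of Il4ra overlapped across libraries, but each library was higher with a Foxp3 UMI. Il6ra fell by 0.45 (SE 0.067, adjusted p = 7.71e-06), with 56.1, 56.1, 62.2 and 82.1 CPM with, against 71.8, 84.3, 83.1 and 96.8 CPM without, lower in 4 of 4 libraries. Without the library block its adjusted p was 0.0632. Il21r rose by 0.25 (SE 0.052, adjusted p = 0.000632), with 217, 163, 174 and 156 CPM with, against 159, 138, 151 and 127 CPM without. This call was lost without the colonized Foxp3CNS1- library (0.17, adjusted p = 0.0605), in cells thinned to 1500 UMIs (adjusted p = 0.0534), with 2 or more Foxp3 UMIs required (0.0565) and without the block (0.223).

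Il7r, whose protein is low on Treg cells, had 98.7, 90.3, 84.4 and 93.7 CPM with, against 94.4, 109, 103 and 115 CPM without a Foxp3 UMI. It fell by 0.24 (SE 0.066, adjusted p = 0.0106), lower in 3 of 4 libraries and higher in colonized Foxp3CNS1- cells. The call was lost in 7 of 12 alternatives: by DESeq2 (adjusted p = 0.102), without the block (0.115), after thinning (a change of -0.09, adjusted p = 0.677), with 2 or more Foxp3 UMIs (0.180), and without the germ-free Foxp3CNS1- (0.0616), the colonized Foxp3GFP (0.157) or the germ-free Foxp3GFP library (0.0568). Changes of 0.02 for Il2rg (SE 0.045, adjusted p = 0.856) and 0.06 for Il27ra (SE 0.060, adjusted p = 0.597) did not pass the test.

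Cells with a Foxp3 UMI were mostly in the Treg-like clusters, so the split was repeated inside cell classes. Among Treg-like cells 3.03% of 9398 genes were higher and 2.39% lower with a Foxp3 UMI, and 4 members were higher and 0 lower. Il2ra rose by 0.93 (SE 0.059, adjusted p = 2.71e-22), with 252, 249, 283 and 228 CPM with, against 129, 120, 152 and 133 CPM without. Il2rb rose by 0.69 (SE 0.051, adjusted p = 1.03e-18), with 420, 378, 546 and 353 CPM with, against 245, 229, 319 and 280 CPM without. Both genes were higher in all 4 libraries without overlap. Il4ra rose by 0.42 (adjusted p = 7.59e-05), a call that DESeq2 (0.0604) and the fit without the block (0.134) did not make. Il21r rose by 0.23 (adjusted p = 0.0119), and this call was lost in 5 alternatives (adjusted p of 0.360 to 0.585), among them the fit without the colonized Foxp3CNS1- library. Il6ra had a change of -0.28 (adjusted p = 0.0885), which passed only without the colonized Foxp3GFP library (-0.37, adjusted p = 0.0361), Il10ra had 0.35 (0.245) and Il7r -0.09 (0.651).

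In naive-like cells few carried Foxp3: 44, 69, 78 and 105 cells with a UMI against 1339, 1039, 1278 and 1390 without. There Il2ra had 107, 142, 164 and 116 CPM with, against 12.4, 22.3, 16.8 and 20.3 CPM without a Foxp3 UMI, and Il2rb 263, 198, 317 and 239 CPM with, against 32, 47.8, 44.3 and 45.0 CPM without. No library without a Foxp3 UMI came near those with one. Il2ra rose by 2.80 (SE 0.19, adjusted p = 1.85e-46) and Il2rb by 2.51 (SE 0.13, adjusted p = 4.53e-74), where 1.68% of 8393 genes were higher and 1.54% lower. These 2 were the only members called, and Il7r had a change of -0.29 (adjusted p = 0.401). Beside the smaller change in Treg-like cells stands the higher level of their cells without a Foxp3 UMI, 120 to 152 CPM of Il2ra against 12.4 to 22.3 CPM in naive-like cells without one. The difference between the classes was not tested.

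Cluster 5, which led with effector and memory genes, had 150, 55, 84 and 34 cells with a Foxp3 UMI. Of its 5869 genes 3.41% were higher and 2.35% lower, and of the members 4 were higher and 0 lower. Il2ra rose by 1.70 (SE 0.16, adjusted p = 6.38e-15), with 178, 170, 214 and 186 CPM with, against 57.6, 43.1, 62.5 and 70.3 CPM without a Foxp3 UMI. Il2rb rose by 0.97 (adjusted p = 2.02e-09). Il4ra rose by 0.98 (adjusted p = 5.76e-05), with 118, 111, 105 and 86.9 CPM with, against 55.0, 64.7, 44.7 and 83.5 CPM without, a call lost after thinning (0.0813) and without the colonized Foxp3CNS1- library (0.0707). Il21r rose by 0.71 (adjusted p = 0.000155), with 206, 192, 187 and 248 CPM with, against 133, 118, 125 and 105 CPM without, a call lost after thinning (0.198) and with 2 or more Foxp3 UMIs (0.0904).

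**Figure D3:**
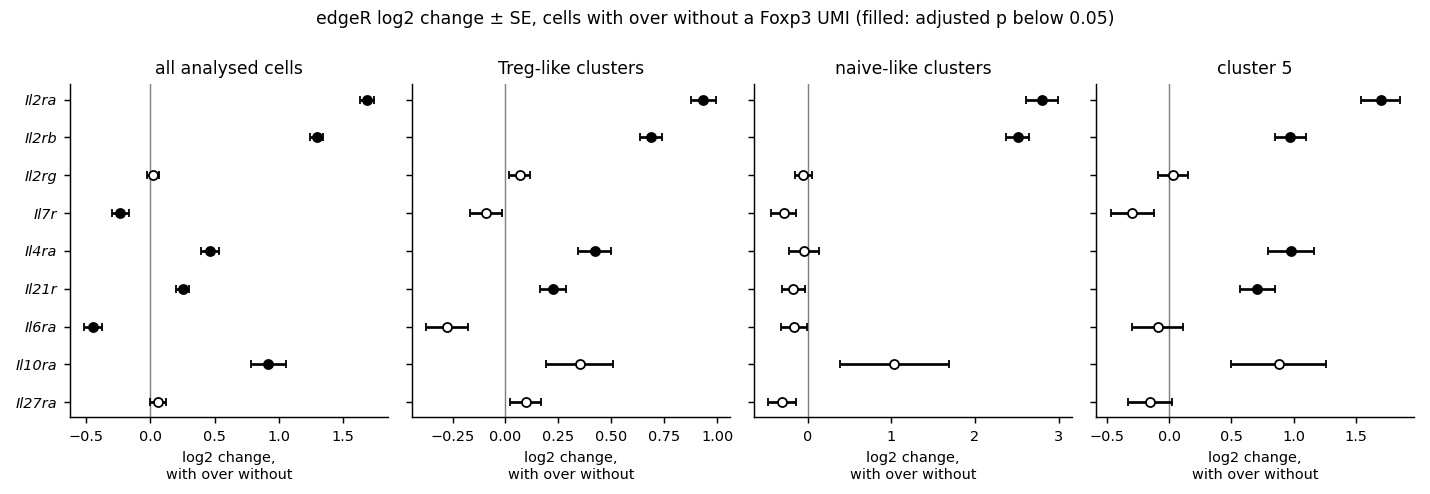
Change of each receptor gene in cells with against cells without a Foxp3 UMI (edgeR log2 change ± SE, 4 libraries) in all cells, Treg-like clusters, naive-like clusters and cluster 5; filled points have an adjusted p below 0.05. Il2ra and Il2rb were filled in all 4 classes, Il4ra and Il21r in all but the naive-like cells.

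These sums do not tell apart more cells that express a gene from more RNA per cell. To compare shares of cells, every cell was thinned to 1500 UMIs, which left out 261, 391, 181 and 452 shallower cells in the library order used above. An Il2ra UMI was found in 27.2%, 27.4%, 34.2% and 24.4% of thinned cells with a Foxp3 UMI, against 10.4%, 8.82%, 9.91% and 8.62% of those without. Before thinning the shares were 43.8%, 39.0%, 50.5% and 37.1% with, against 14.2%, 11.5%, 14.6% and 12.0% without. In naive-like cells, which should hold little CD25, the thinned share was 1.97%, 4.46%, 3.06% and 3.10%. It is not a background rate, because it includes naive-like cells with a Foxp3 UMI. Before thinning those held 15, 30, 46 and 37 of the 64, 91, 109 and 113 Il2ra UMIs in naive-like cells. Median depth was 2325 to 3040 UMIs in cells with and 2282 to 2782 UMIs in cells without a Foxp3 UMI.

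UMIs of all 3 IL-2 receptor chains in the same thinned cell were found in 5.22%, 5.37%, 6.97% and 1.72% of cells with a Foxp3 UMI, against 1.35%, 0.968%, 1.5% and 1.07% of cells without. The germ-free Foxp3GFP value rests on 6 of 349 cells, and its 95% exact binomial interval of 0.633% to 3.70% reaches the share without a Foxp3 UMI. Unthinned, the shares were 19.6%, 12.9%, 24.4% and 14.5% with, against 5.08%, 2.80%, 6.06% and 3.26% without. Among cells with no Foxp3 UMI, those with an Il2ra UMI had 307, 320, 376 and 344 CPM of Il2rb, against 110, 111, 114 and 107 CPM in those without an Il2ra UMI. Il2rb thus also went with Il2ra where no Foxp3 UMI was seen, in all 4 libraries, with the mix of clusters not held fixed. Since GFP-positive and GFP-negative cells were mixed in equal parts, many of these cells can be GFP-positive. They do not stand for cells other than Treg cells.

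The genes around the receptors were counted from lists of their ligands, partner chains and response genes, in cells with against cells without a Foxp3 UMI over all analysed cells, and are to be read against the 9.89% and 8.37% of all genes given above. Of the ligands 5 of 12 were tested, of which Il10 (1.07, adjusted p = 0.000113) and Ebi3 (1.02, adjusted p = 1.17e-05), cytokine genes of Treg cells, rose, and Il21 (-2.33, adjusted p = 6.24e-06) and Il4 (-2.16, adjusted p = 8.15e-09) fell. Il2 had a change of -0.81 that did not pass (adjusted p = 0.0642). Il21 and Il4 are also among the follicular helper markers, whose sum was 99.5, 150, 85.0 and 135 CPM with, against 187, 281, 162 and 203 CPM without a Foxp3 UMI. Of 16 partner and related chains 10 rose and 3 fell, at a median of 0.25. Il1rl1, the IL-33 receptor, rose by 1.79, the TGF-beta receptor Tgfbr1 by 1.03 and the interferon-gamma receptor Ifngr1 by 0.92, and the IL-18 receptor Il18r1 fell by 0.89. The partners of the members rose too, Il10rb by 0.44 (adjusted p = 3.11e-05) and Il6st by 0.30 (adjusted p = 0.00704), so Il6st and Il6ra went in opposite directions.

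Among the kinases inside the cell, Jak3, which binds the common gamma chain, had a change of 0.03 that did not pass the test (adjusted p = 0.909). Genes known to respond to STAT5, the factor that IL-2 and IL-7 activate, rose in 9 of 14 cases and fell in 2, at a median of 0.41. The feedback inhibitors Socs2 and Cish rose by 1.63 and 1.21, the kinase Pim1 by 1.12 and the cytokine Lta by 0.67, while Pim2 and Ccnd3 fell by 0.56 and 0.21. Among 10 genes known to respond to STAT3, the factor downstream of IL-6, IL-10, IL-21 and IL-27, 7 rose and 1 fell, at a median of 0.47. Prdm1 rose by 1.17 and Ahr by 1.13, and Bcl6, also a follicular helper marker, fell by 0.89. Of 10 factors known to act on Il7r, Tcf7, Lef1 and Klf2 fell by 1.75, 1.15 and 0.50 and Foxo1 rose by 0.28. Those that fell are naive T cell markers as well, and the naive marker sum was 1451, 1653, 1579 and 1779 CPM with, against 2466, 2556, 2885 and 3037 CPM without a Foxp3 UMI. What part of these counts goes with the mix of cell types was not tested. Inside Treg-like cells 8 of 14 STAT5 response genes rose and 1 fell, inside naive-like cells 4 rose and 0 fell, and inside cluster 5 5 rose and 0 fell. Over all genes the shares higher and lower were 3.03% and 2.39%, 1.68% and 1.54%, and 3.41% and 2.35% in these classes.

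Colonization and genotype were compared between single libraries, so the ratios below have no replicate and no test. They are log2 ratios of CPM with an exact 95% interval for counting error only, and the 4 comparisons share libraries. A ratio is counted as large when it is 0.5 or more in either direction with at least 50 UMIs over both libraries. In Treg-like cells 0 of the 9 members were past that fold under colonization in Foxp3GFP, where 4.2% of genes were higher and 7.49% lower, and 0 in Foxp3CNS1-, where 3.11% were higher and 8.61% lower. By genotype 0 members were past it in germ-free (5.63% of genes higher and 2.96% lower) and 0 in colonized mice (3.25% and 2.75%).

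Il2rb was the member that differed most by colonization in Foxp3GFP Treg-like cells, with 406 CPM in colonized and 305 CPM in germ-free mice, a log2 ratio of 0.41 (0.30 to 0.53). Il2ra had 202 against 166 CPM, a ratio of 0.29 (0.13 to 0.45). Il7r differed to a like degree, with 107 against 87.0 CPM, and had 112 against 108 CPM in Foxp3CNS1- Treg-like cells. In Foxp3CNS1- Treg-like cells the ratios were 0.16 (0.05 to 0.27) for Il2rb, with 304 against 272 CPM, and 0.12 (-0.03 to 0.27) for Il2ra, with 171 against 157 CPM. In cells with a Foxp3 UMI Il2rb had 454 CPM in colonized and 304 CPM in germ-free Foxp3GFP mice, a ratio of 0.58 (0.44 to 0.72), and was the single member past the fold there, where 6.87% of genes were higher and 7.57% lower. The ratio in Foxp3CNS1- was 0.21 (0.07 to 0.35), with 383 against 331 CPM. By cluster, Il2rb was higher in 8 of 9 clusters of colonized Foxp3GFP mice with 5 intervals above 0, and lower in naive-like cluster 1 (39.6 against 57.5 CPM). In Foxp3CNS1- it was higher in 4 of 9 clusters with 1 interval above 0.

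Il2ra and Il2rb were lower in colonized Foxp3CNS1- than in colonized Foxp3GFP cells. In Treg-like cells Il2rb had 304 CPM in Foxp3CNS1- and 406 CPM in Foxp3GFP mice, a ratio of -0.42 (-0.51 to -0.33), and thinning moved it past the fold (-0.54). Il2ra had 171 against 202 CPM, a ratio of -0.25 (-0.37 to -0.12). Each of them was lower in 8 of 9 clusters with 7 intervals below 0, and cluster 4 was the exception, with an Il2ra ratio of 0.43 (0.06 to 0.80). In germ-free mice each was lower in 5 of 9 clusters, with 2 intervals below 0 for Il2rb and 0 for Il2ra. In germ-free Treg-like cells Il2rb had 272 CPM in Foxp3CNS1- and 305 CPM in Foxp3GFP mice. Its ratio there was -0.30 after thinning and 0.10 in cells with a Foxp3 UMI. Il2ra had 157 against 166 CPM in germ-free Treg-like cells. Il2rg was lower in 9 of 9 clusters of colonized Foxp3CNS1- mice, by small ratios of -0.18 to -0.01. The colonized Foxp3GFP library, highest for Il2ra and Il2rb, takes part in both comparisons, so the one is not independent of the other.

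**Figure D4:**
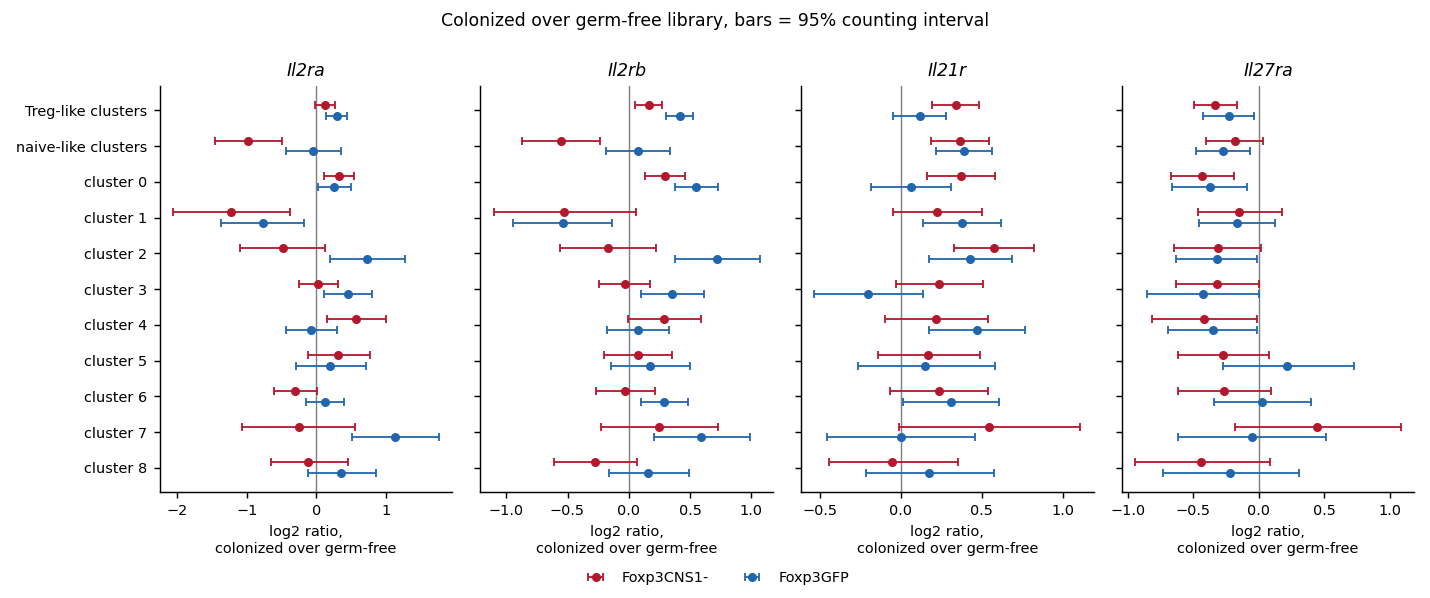
Colonized over germ-free log2 ratio (axis in log2 units, with exact 95% counting intervals) of Il2ra, Il2rb, Il21r and Il27ra by class and cluster, for Foxp3CNS1- and Foxp3GFP mice. Il21r lay above 0 in 8 of 9 clusters and Il27ra below 0 in 7 or 8 of 9 clusters in each genotype, while Il2ra and Il2rb in naive-like cluster 1 lay below 0.

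In naive-like cells the low Il2ra and Il2rb counts differed more. Colonized Foxp3CNS1- cells had 15.7 CPM of Il2ra against 30.8 CPM in germ-free Foxp3CNS1- cells, a ratio of -0.98 (-1.46 to -0.50), and 39.9 against 58.6 CPM of Il2rb, a ratio of -0.55 (-0.87 to -0.24). These were 2 of 8 members with enough UMIs, where 2.86% of genes were higher and 8.76% lower. With the mix of clusters 1 and 2 held fixed the ratios were -0.74 and -0.29, and in cells without a Foxp3 UMI -0.84 and -0.58. Against colonized Foxp3GFP naive-like cells (27.1 and 63.3 CPM) the ratios were -0.79 (-1.26 to -0.33) and -0.67 (-0.96 to -0.38), where 2.42% of genes were higher and 5.24% lower, and in cells without a Foxp3 UMI they were -0.44 and -0.47. The sum of 12 Treg markers in naive-like cells was 339, 533, 451 and 508 CPM in the library order used above. Like Il2ra and Il2rb, it was lowest in colonized Foxp3CNS1- mice. Cells with a Foxp3 UMI were also fewest there, with 44, 69, 78 and 105 among 1383, 1108, 1356 and 1495 naive-like cells. The part of these cells in the ratios was not tested. In the other 2 comparisons 0 of 8 members were past the fold, where 3.93% of genes were higher and 6.7% lower under colonization in Foxp3GFP, and 4.18% and 4.05% by genotype in germ-free mice. Under colonization in Foxp3GFP the naive-like clusters 1 and 2 went opposite ways. Il2rb had a ratio of -0.54 in cluster 1 and of 0.72 in cluster 2, with 103 against 62.7 CPM. Il2ra had a ratio of -0.77 in cluster 1 and was higher in colonized cells of cluster 2.

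Over all cells Il21r was higher and Il27ra lower in the colonized library of each genotype. Over all cells Il21r had 171 CPM in colonized and 142 CPM in germ-free Foxp3CNS1- mice, a ratio of 0.26 (0.17 to 0.36). In Foxp3GFP the ratio was 0.25 (0.15 to 0.34). It was higher in 8 of 9 clusters of each genotype, with 2 intervals above 0 in Foxp3CNS1- and 4 in Foxp3GFP. In naive-like cells the ratios were 0.37 (0.19 to 0.55) and 0.39 (0.21 to 0.56), with ranges over the alternatives of 0.35 to 0.41 and 0.34 to 0.43. In Treg-like cells Il21r had 199 CPM in colonized and 158 CPM in germ-free Foxp3CNS1- mice, a ratio of 0.34 (0.19 to 0.48). In Foxp3GFP Treg-like cells it had 174 against 161 CPM, a smaller ratio of 0.11 (-0.05 to 0.28), and the difference between the genotypes was not tested. Il27ra had 95.2 CPM in colonized and 118 CPM in germ-free Foxp3CNS1- mice, a ratio of -0.31 (-0.42 to -0.20), and 91.6 against 108 CPM in Foxp3GFP, a ratio of -0.24 (-0.36 to -0.13). It was lower in 8 and 7 of 9 clusters, with 2 and 3 intervals below 0.

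Markers of B and plasma cells also differed by colonization. Their sum over all cells was 1250 CPM in colonized and 789 CPM in germ-free Foxp3CNS1- mice, and 1504 against 704 CPM in Foxp3GFP mice. In naive-like cells the sums were 298 against 308 CPM and 303 against 343 CPM, beside the naive-like Il21r ratios of 0.37 and 0.39 given above. After cells with 10 or more immunoglobulin UMIs were left out, the Treg-like ratio of Il27ra was -0.35 in Foxp3CNS1- and -0.19 in Foxp3GFP mice, against -0.33 and -0.23 with them. The part of B and plasma cell RNA in these ratios was not tested.

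Taken whole, the Foxp3CNS1- library had more Il4ra and less Il6ra than the Foxp3GFP library at both microbial states. Over all cells Il4ra had 87.6 CPM in germ-free Foxp3CNS1- and 72.7 CPM in germ-free Foxp3GFP mice, a ratio of 0.27 (0.13 to 0.41). In colonized mice it had 83.3 against 71.1 CPM, a ratio of 0.23 (0.11 to 0.35). It was higher in 8 of 9 clusters of germ-free and 7 of 9 of colonized Foxp3CNS1- mice, with 2 intervals above 0 in each, and in naive-like cells of colonized mice the ratio was just under the fold, at 90.6 against 64.1 CPM, and past it in 5 of 8 alternatives, up to 0.68 after thinning. The ratio of Il6ra was -0.25 (-0.39 to -0.11) between germ-free libraries and -0.19 (-0.31 to -0.07) between colonized ones. Il6ra was lower in 7 of 8 germ-free and 6 of 9 colonized clusters, with 0 and 1 intervals below 0. Naive-like cells had 112 against 115 CPM in germ-free and 100 against 119 CPM in colonized mice. Treg-like cells had 61.1 against 77.0 and 64.1 against 66.8 CPM. Cluster 1, where Il6ra was highest, held 15.6%, 11.2%, 20.5% and 17.3% of cells in the library order used above. The part of this mix was not tested. In cells with a Foxp3 UMI Il6ra had 56.1 CPM in germ-free Foxp3CNS1- and 82.1 CPM in germ-free Foxp3GFP mice, a ratio of -0.55 (-0.93 to -0.18). It was the single member past the fold there, where 5.77% of genes were higher and 3.67% lower. Il7r went both ways by cluster: in cluster 5 it had 132 against 80.3 CPM in germ-free mice, a ratio of 0.72 (0.20 to 1.26), and 111 against 82.5 CPM in colonized mice, 0.43 (0.10 to 0.77), whereas in cluster 4 the ratios were -0.51 and -0.48.

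Patterns across cells were compared as Pearson's r of log2(CPM + 10) over 36 units, each 1 cluster in 1 library. The units share 4 libraries and the clustering, so r is a description. The nearest of 6889 genes to Il2ra was Il2rb (r = 0.974), followed by Foxp3 (0.956) and Gpr83 (0.947), a receptor gene typical of Treg cells. Il2rb in turn had Il2ra, Gpr83 (0.949) and Ikzf2 (0.947), which encodes Helios, as its nearest. Il2rg was nearest to Gimap3 (0.887), Shisa5 (0.880) and the costimulatory receptor Cd27 (0.876). Il7r was nearest to Peli1 (0.919), Btg1 (0.916) and Arhgap45 (0.916), and Il4ra to Tmem59 (0.855), Malat1 (0.847) and Ddrgk1 (0.847). Il21r was nearest to H2-Q7 (0.897), an MHC class I gene with near-identical copies whose counts are uncertain, Laptm4a (0.817) and the interferon factor Irf9 (0.812). Il6ra had Gm2682 (0.965), Pik3ip1 (0.943), an inhibitor of PI3 kinase, and Stk38 (0.942). Il27ra had Pnisr (0.855), H2-Q4 (0.854) and Cd27 (0.853), and Il10ra had Slc4a7 (0.909), Traf1 (0.902) and AW112010 (0.897). Between members, Il10ra went with Il2ra (0.803) and Il2rb (0.796), Il7r with Il2rg (0.775), Il4ra (0.753) and Il6ra (0.723), and Il6ra ran against Il2rb (-0.480) and Il2ra (-0.433). Il7r, Il2rg, Il4ra, Il6ra and Il27ra had their lowest values in the 4 units of cluster 8, whose cells were the deepest. For Il7r these were 4.37 to 4.95 on the log2 scale, against 6.02 or more in the other units. How far any r rests on cluster 8 was not tested.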

How the data were processed

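The authors made the UMI counts with Cell Ranger and Scanpy 1.5.1 on mm10, per the submitters' processing notes, and deposited raw counts per gene and cell. No version of Cell Ranger is named there. Each value was a whole number of at least 0. Of 17478 cells, 227 were not in the deposited cell table and 303 were marked as removed by the authors, which left 16948. The cell table had 3 further columns, left unused. Clusters were named from marker lists.

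Counts were summed per library and cell class and scaled to CPM here (Python 3.11.15, numpy 2.4.6, scipy 1.17.1, pandas 2.3.3). Cells with and without a Foxp3 UMI were compared with edgeR 4.0.16 in R 4.3.3 (quasi-likelihood, TMM factors, library as a block, genes filtered on low counts), and Foxp3 itself was left out of counts of called genes. DESeq2 1.42.0, other normalization, no filter, no block, cells thinned to 1500 UMIs (seed 7), a minimum of 2 Foxp3 UMIs, cells up to the 98th percentile of UMIs and each library left out were alternatives, as was leaving out cells with 10 or more immunoglobulin UMIs, which for the Foxp3 comparison was chosen after seeing the data. Both sums of a library come from the same mice and the same library, which is where the pairing comes from. The SE of an edgeR change is its size over the square root of F. Ratios between libraries carry exact 95% Clopper-Pearson intervals, shares exact binomial ones, for counting error only, and a floor is 3 counts. Both calculations were run on simulated counts with known changes, drawn with counting error for the ratios and a common dispersion for edgeR. These runs cannot show how either behaves with the real spread between libraries.

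The members and gene lists were chosen with earlier results of these data known. All 9 members are named, with the 3 genes most like each in pattern (genes with at least 500 UMIs, units with at least 50 cells), and up to 4 called genes of each list with the largest change, beside others picked after their values were seen. Il6, Il7, Il13, Il15, Il27, Il9 and Tslp were not analysed here, and some results on marker and signalling genes are not reported here.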

Additional observations from a re-analysis of the deposited data

Results flagged for a closer look

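Il2ra in cells with a Foxp3 UMI differed by genotype in opposite directions at the 2 microbial states. In germ-free mice it had 216 CPM in Foxp3CNS1- and 185 CPM in Foxp3GFP cells, a log2 ratio of 0.221 (0.01 to 0.43). In colonized mice it had 221 CPM in Foxp3CNS1- and 247 CPM in Foxp3GFP cells, a log2 ratio of -0.1626 (-0.31 to -0.02). The difference between these ratios was not tested, each rests on 1 library per group, and both intervals end close to 0. It was the single case found in a search of all members, classes and clusters for intervals on opposite sides of 0. In Treg-like clusters the direction did not change, with 157 CPM in Foxp3CNS1- against 166 CPM in Foxp3GFP germ-free mice. In colonized mice it was 171 against 202 CPM.

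The 303 cells that the authors marked as removed also held receptor transcripts. Il10ra had 51.96 CPM in removed and 12.5 CPM in analysed cells, a log2 ratio of 2.06 (1.59 to 2.49), and Il7r had 147.8 against 101 CPM, a ratio of 0.54 (0.28 to 0.80). Il2ra and Il6ra were lower there, with 25.4 against 97.3 CPM and 24.2 against 78.4 CPM. Median depth was 2341 UMIs in removed and 2580 UMIs in analysed cells. The removed cells had 18700 CPM of summed myeloid and dendritic markers against 301 in analysed cells, 16722 against 473 of effector and memory markers, and 6363 against 1119 of B and plasma cell markers. The part of these cell types in the receptor values was not tested.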

How the results depend on the processing

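The number of genes called by Foxp3 status moved with the settings. In all cells it was 1968, and it was 934 by DESeq2, 711 without the library block and 1161 after thinning. In Treg-like cells it was 510, and 118, 63 and 199 under those settings and 221 with 2 or more Foxp3 UMIs. In naive-like cells it was 270, and 130, 141, 172 and 119. In cluster 5 it was 338, and 103, 134, 72 and 112. Leaving out 1 library gave 1216 to 1919 in all cells, 307 to 478 in Treg-like, 158 to 201 in naive-like and 151 to 317 in cluster 5 cells. The lowest counts came without colonized Foxp3GFP in all and naive-like cells and without colonized Foxp3CNS1- in Treg-like cells and cluster 5. Counts without the germ-free Foxp3CNS1- library were 323 for the Treg-like and 161 for the naive-like class. The cause was not tested. The calls of Il2ra and Il2rb held in all 4 classes under each of 12 alternatives.

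For the members, 404 of the Foxp3 results kept their side of the threshold, 23 lost their call and 1 gained it, and none changed sign while called. Members past the fold between libraries went to 1, where the count was 0, by Foxp3 status under colonization in Foxp3GFP Treg-like cells (Il2rb, 0.63), by Foxp3 status between genotypes in germ-free mice (Il6ra) and after thinning between genotypes in colonized mice (Il2rb). They went to 1, where the count was 2, with at least 200 UMIs in both naive-like comparisons that had any, with the cluster mix fixed in the colonization one and by Foxp3 status in the genotype one (Il4ra). In the genotype one they went to 3, with Il4ra, when immunoglobulin-rich cells were left out, after thinning, at a fixed cluster mix and when each cell counted equally. Leaving out a library could not be run between libraries, since each group has 1. Few UMIs limit Il10ra, cluster 9 and naive-like Il2ra.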
